A study of Callithrix jacchus with 6 samples.

Results

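Cyclic nucleotide phosphodiesterases break down cAMP and cGMP, the second messengers made by adenylyl and guanylyl cyclases after hormones, neurotransmitters or nitric oxide reach a cell. The enzyme families differ in which nucleotide they cleave and in how they are regulated, so the set a cell carries shapes how long and where a signal lasts. In the brain, cAMP acts through protein kinase A and the transcription factor CREB, on which long-term memory in the hippocampus depends. PDE10A is best known as the abundant enzyme of striatal projection neurons, and PDE3A as the enzyme of heart and vascular smooth muscle that milrinone and cilostazol inhibit.

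The members described were chosen by name: PDE3A, PDE10A, PDE1A, PDE4B, PDE4D, PDE7B, PDE8A and PDE8B, which makes 8 named genes of 29320 in the count tables. PDE3A and PDE10A were chosen because earlier results of these data showed them to differ in astrocytes, so their astrocyte values below are a description without a test. The gene tables gave 6 of the members by symbol, PDE3A (ENSCJAG00000012237), PDE10A (ENSCJAG00000012410), PDE1A (ENSCJAG00000011397), PDE4B (ENSCJAG00000017022), PDE4D (ENSCJAG00000015215) and PDE7B (ENSCJAG00000008164). PDE8B (ENSCJAG00000019876) was found through its gene ID in a gene name table. PDE8A matched no row under either route and is not analysed here, which leaves 7 genes.

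The cells came from hippocampi of aged common marmosets (Callithrix jacchus), either anaesthetised for 6 h with sevoflurane, an inhaled anaesthetic, or given oxygen for 6 h as the control. Each group had 3 libraries of 10x Genomics 3′ single-cell RNA from collagenase-digested, cryopreserved suspensions. The labels do not say that the libraries came from separate animals, so p-values measure the spread between libraries, which may be technical. No genotype, strain or further treatment is labelled.

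The libraries held 7103 to 8577 cell barcodes and 41164947 to 47886816 unique molecular identifiers (UMIs, each marking 1 captured RNA molecule). After removal of marked doublets 44344 cells remained, and 23 of 34 clusters were named as 11 classes by marker genes. The classes with at least 20 cells in each library were astrocyte-like (4898 cells), oligodendrocyte-like (8073), oligodendrocyte precursor (OPC)-like (1951), microglia-like (1839), endothelial-like (736), GABAergic neuron-like (3018) and glutamatergic neuron-like (17754). Sevoflurane replicate 3 stood apart: most of its oligodendrocyte-like cells lay in cluster 25 (1055 cells), and most of its glutamatergic neuron-like cells lay in clusters 18, 19 and 20. Values below are UMIs summed over the cells of a class in a library, per 1000000 UMIs of that class and library (CPM). A lower value can come from fewer cells with the transcript or from less transcript per cell, which these sums cannot tell apart.

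PDE3A and PDE10A were both lower in the astrocyte-like cells of every sevoflurane library than in those of any oxygen library. PDE3A, which cleaves cAMP and is inhibited by cGMP, had 21.14, 24.96 and 24.61 CPM in sevoflurane libraries, against 114.6, 149.3 and 101.1 CPM in oxygen libraries. The sevoflurane libraries lay close together, and the lowest oxygen library lay far above the highest of them. The fitted PDE3A level after sevoflurane was 19.4% of that after oxygen, a log2 fold change of -2.37 ± 0.20 (SE). PDE10A, which cleaves cAMP and cGMP, had 111.7, 58.0 and 80.3 CPM in sevoflurane libraries, against 270.3, 240.9 and 186.4 CPM in oxygen libraries. Its groups did not overlap either, and its log2 fold change was -1.47 ± 0.24 (SE), or 36.2% of the oxygen level.

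**Figure D1:**
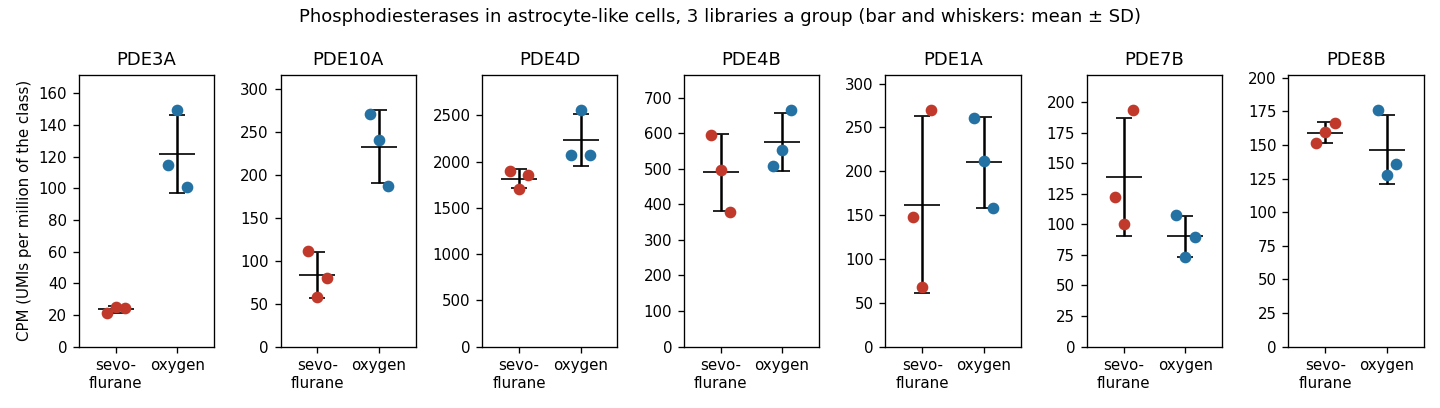
CPM of each measured phosphodiesterase in astrocyte-like cells, with 3 sevoflurane libraries left and 3 oxygen libraries right; points are libraries, bars and whiskers the mean ± SD, and each gene has its own axis from 0. The sevoflurane points for PDE3A, PDE10A and PDE4D all lie below the oxygen points, and those of the other 4 genes overlap.

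The other members differed less between groups in these cells. PDE4D, a cAMP-specific enzyme, had 1893, 1705 and 1851 CPM in sevoflurane libraries, against 2073, 2555 and 2071 CPM in oxygen libraries, so the groups did not overlap although the log2 fold change was only -0.30 ± 0.13 (SE). PDE4B, its relative with the same substrate, had 378.5 to 595.7 CPM after sevoflurane and 506.9 to 664.6 CPM after oxygen, with overlapping groups. PDE7B, another cAMP-specific enzyme, averaged 138.6 ± 48.5 CPM after sevoflurane and 90.1 ± 16.9 CPM after oxygen (SD, n = 3 each), and its groups overlapped. PDE8B, a high-affinity cAMP enzyme, and PDE1A, which is activated by calcium and calmodulin, also overlapped, with log2 fold changes of 0.12 ± 0.15 and -0.35 ± 0.41 (SE). The PDE1A value was 0.02 without sevoflurane replicate 2 and -0.95 without sevoflurane replicate 3, and that of PDE8B ran from 0.03 to 0.28 with 1 library left out. Of the 7 members, 3 were lower without overlap in astrocyte-like cells, beside 6.46% of all 11117 genes tested there; the members were chosen from this contrast, so nothing is read from that share. The members' median log2 fold change was -0.30, beside 0.00 for all genes.

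The same PDE3A counts can be read cell by cell, which is a description and no further evidence. At least 3 PDE3A UMIs were held by 0.143%, 0% and 0.19% of the astrocyte-like cells of sevoflurane libraries, against 2.41%, 4.92% and 2.35% of those of oxygen libraries. The 0 among 524 cells allows a share of up to 0.573%, by counting error alone. The highest PDE3A count in a single cell was 3 after sevoflurane and 17 after oxygen. With each cell thinned to 1000 UMIs, a PDE3A UMI was found in 2.53% ± 0.30 of astrocyte-like cells after sevoflurane and in 9.33% ± 1.35 after oxygen (SD, n = 3 each). Without thinning the shares were 5.37% ± 0.681 after sevoflurane and 18.8% ± 0.781 after oxygen. In oligodendrocyte-like cells, the class with the lowest PDE3A level, the thinned shares were 1.58% ± 0.806 after sevoflurane and 3.35% ± 0.761 after oxygen. In the single sevoflurane libraries the shares were 2.18%, 2.70% and 2.70% of astrocyte-like against 2.12%, 0.651% and 1.96% of oligodendrocyte-like cells. Their 95% counting intervals overlapped in replicates 1 and 3. In replicate 2 the intervals were apart, at 1.49% to 4.49% against 0.262% to 1.34%. At 2000 UMIs per cell the means after sevoflurane were 4.14% of astrocyte-like and 2.51% of oligodendrocyte-like cells. Median depths were 2301 to 3030 UMIs per astrocyte-like and 1555 to 2183 UMIs per oligodendrocyte-like cell. For PDE10A the thinned shares in astrocyte-like cells were 7.78% ± 1.46 after sevoflurane and 17.9% ± 2.28 after oxygen. The class with the lowest PDE10A level, microglia-like cells, had 5.97% ± 3.77 after sevoflurane and 10.2% ± 2.76 after oxygen.

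The astrocyte label was carried by SLC1A2, the glutamate transporter of astrocytes, and ALDH1L1 among the leading genes of the cluster. GFAP, the intermediate filament of astrocytes, was lower after sevoflurane, at 353.9, 306.1 and 259.5 CPM in sevoflurane libraries and 505.0, 544.5 and 537.8 CPM in oxygen libraries. ALDH1L1, a folate enzyme of astrocytes, was higher, at 891.6, 726.0 and 940.9 CPM in sevoflurane libraries and 580.6, 526.4 and 360.1 CPM in oxygen libraries. GFAP and ALDH1L1 thus went in opposite directions without overlap, while 6.46% of all genes in this class were lower without overlap. AQP4, SLC1A2 and GJA1 overlapped between groups, as did the sum of the 14 astrocyte markers found. Among cells with a GFAP UMI, PDE3A averaged 26.99 ± 6.09 CPM after sevoflurane and 106 ± 12.4 CPM after oxygen (SD, n = 3 each). Among cells without one it averaged 21.1 ± 1.57 CPM after sevoflurane and 145.5 ± 50.1 CPM after oxygen. PDE10A averaged 80.4 ± 25.8 CPM after sevoflurane and 219.6 ± 35.6 CPM after oxygen with a GFAP UMI. Without one it stood at 85.8 ± 28.4 CPM after sevoflurane and 247.2 ± 54.8 CPM after oxygen. Both genes were chosen from the contrast in these same cells, so the split is a description and no further evidence.

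Markers of classes rich in PDE3A or PDE10A were measured in the same astrocyte-like cells. The 12 OPC markers found summed to 1691 to 1939 CPM after sevoflurane and 1943 to 2147 CPM after oxygen, with OLIG1 and GPR17 at 0 in every library. The 11 mural markers found summed to 217.4 to 298.8 CPM after sevoflurane and 236.3 to 269.3 CPM after oxygen, with TAGLN at 0, and the 14 endothelial markers to 68.3 to 87.3 CPM after sevoflurane and 48.5 to 63.5 CPM after oxygen. The 13 GABAergic neuron markers found summed to 109.6 to 198.9 CPM after sevoflurane and 189.1 to 205.4 CPM after oxygen, and the 12 glutamatergic neuron markers to 425.8 to 550.1 CPM after sevoflurane and 448.7 to 680.4 CPM after oxygen. The OPC sum was lower and the endothelial sum higher in sevoflurane libraries without overlap, and the mural and both neuron sums overlapped. The 10 T cell markers found summed to 16.8 to 25.2 CPM after sevoflurane and 14.82 to 15.99 CPM after oxygen, with CD3D, CD3G and IL7R at 0. The part of GFAP, ALDH1L1 and these marker sums in the PDE3A and PDE10A values was not tested.

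Across classes, the members were highest in different cells. PDE3A was highest in mural-like cells, the pericytes and smooth muscle of vessels, at 613 ± 72.8 CPM (SD, n = 4 libraries with at least 20 such cells), and its range there lay above that of the next class and was reached by only 1 GABAergic neuron-like library, at 542.3 CPM. OPC-like cells followed at 395 ± 33.7 CPM (SD, n = 6 here and for the following classes), GABAergic neuron-like cells at 330 ± 172 CPM, microglia-like cells at 225 ± 95.9 CPM and endothelial-like cells at 213 ± 60.5 CPM, each overlapping its neighbour in this order. Astrocyte-like cells came next at 72.6 ± 56.0 CPM, with glutamatergic neuron-like cells at 43.9 ± 27.5 CPM and oligodendrocyte-like cells lowest at 25.7 ± 13.1 CPM. In mural-like cells PDE3A stood at 608.8 and 589.6 CPM in the 2 sevoflurane libraries with enough cells, against 541.2 and 714.0 CPM in the 2 oxygen libraries, so the groups overlapped there. In the same 4 libraries PDE10A, PDE7B and PDE8B were lower in the sevoflurane libraries, on 11 to 99 UMIs per value. With 2 libraries a group this was not tested. The share of all genes so placed was not counted, so nothing is read from these values. PDE10A had 279.7 and 166.3 CPM in sevoflurane libraries, against 413.9 and 434.6 CPM in oxygen libraries. PDE7B had 658.2 and 952.5 CPM in sevoflurane libraries, against 1576 and 1459 CPM in oxygen libraries. PDE8B had 444.3 and 498.9 CPM in sevoflurane libraries, against 748.2 and 838.1 CPM in oxygen libraries.

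PDE10A was highest in OPC-like cells, at 804 ± 59.1 CPM over the 6 libraries, and lowest in microglia-like cells, at 86.2 ± 37.4 CPM. Between them, in falling order, lay endothelial-like cells at 638 ± 212 CPM, GABAergic neuron-like cells at 542.5 ± 191 CPM, glutamatergic neuron-like cells at 470.5 ± 216 CPM and oligodendrocyte-like cells at 422 ± 80.4 CPM. Then came mural-like cells at 324 ± 125 CPM (n = 4), ependymal-like cells at 195 ± 69.6 CPM and fibroblast-like cells at 191 ± 38.6 CPM (n = 5 each), and astrocyte-like cells at 158 ± 87.7 CPM. In this order of 10 classes each range overlapped that of the next class, while the ranges of oligodendrocyte-like and astrocyte-like cells were separate. PDE4B was highest in oligodendrocyte-like cells at 4394 ± 326 CPM, then in microglia-like cells at 1996 ± 502 CPM and OPC-like cells at 1017 ± 87.9 CPM, and these 3 ranges did not overlap. PDE1A was highest in glutamatergic neuron-like cells at 1212 ± 342 CPM and mural-like cells at 962 ± 99.0 CPM. PDE7B separated mural-like, endothelial-like, OPC-like and fibroblast-like cells, at means of 671 to 1161 CPM, from the other classes with at least 4 libraries, where it averaged at most 148.5 CPM; choroid plexus-like cells, measured in 1 library, had 172.9 CPM. PDE8B was highest in mural-like cells at 632 ± 191 CPM. PDE4D had its highest mean in GABAergic neuron-like cells, at 3281 ± 866 CPM, and among the classes with at least 4 libraries its lowest in ependymal-like cells, at 749 ± 278 CPM; the choroid plexus-like cells of sevoflurane replicate 1, the one library with enough of them, had 214.4 CPM.

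**Figure D2:**
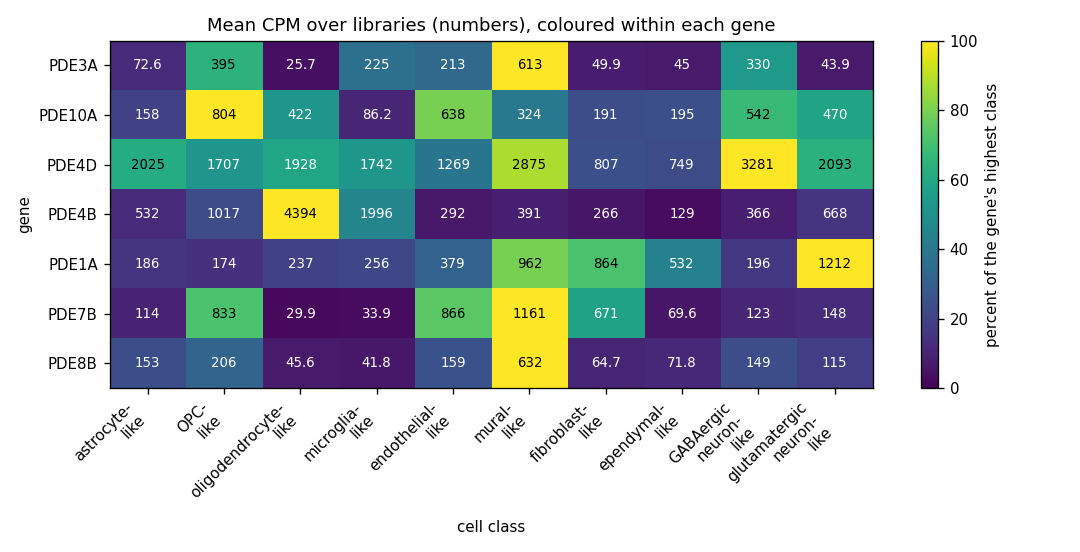
Mean CPM of each gene (rows) in each cell class (columns) over the libraries with at least 20 cells of the class; colour is the percent of the gene's own highest class, so colours compare classes within a gene. PDE3A and PDE8B peak in mural-like cells at 613 and 632 CPM, PDE10A in OPC-like cells at 804 CPM and PDE4B in oligodendrocyte-like cells at 4394 CPM.

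Outside astrocyte-like cells, the members were tested in 6 classes with edgeR's quasi-likelihood test on the summed counts, with Benjamini-Hochberg adjustment over all genes of the class. None of the 42 values passed an adjusted p of 0.05. At an unadjusted p under 0.05 there were 10 of the 42, while 4.61% to 10.1% of all genes lay under that level in these classes, and DESeq2, a second count model, called 2 of the 42. The edgeR test called few genes of any kind, between 0% of endothelial-like and 0.118% of microglia-like genes. The other shares called were 0.00802% in GABAergic neuron-like, 0.022% in OPC-like, 0.00576% in glutamatergic neuron-like and 0.0172% in oligodendrocyte-like cells.

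**Figure D3:**
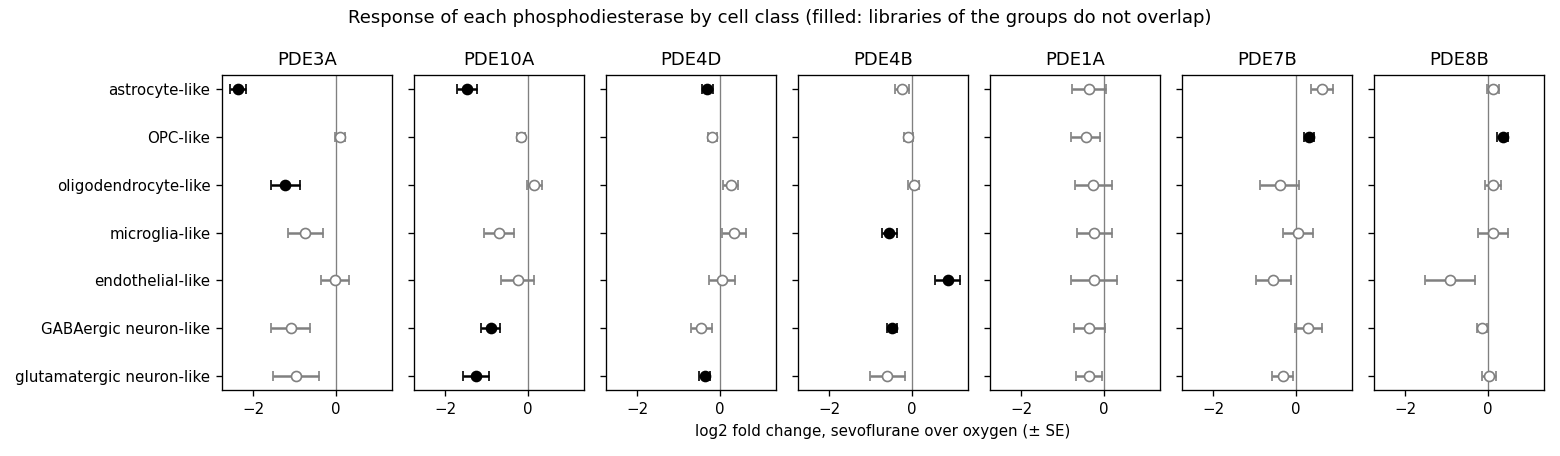
Log2 fold change of sevoflurane over oxygen with its SE for each gene (panels) in the 7 classes (rows), from edgeR; filled points mark genes whose sevoflurane and oxygen libraries do not overlap. PDE3A and PDE10A lie furthest left in astrocyte-like cells, at -2.37 and -1.47, and PDE10A is near 0 in OPC-like and oligodendrocyte-like cells.

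PDE10A was lower in both neuron classes, without overlap between groups. In GABAergic neuron-like cells it had 416.3, 504.9 and 243.5 CPM in sevoflurane libraries, against 693.0, 749.1 and 648.4 CPM in oxygen libraries. The log2 fold change was -0.90 ± 0.23 (SE), with an edgeR adjusted p of 0.244 and a DESeq2 adjusted p of 0.0177, where DESeq2 called 0.706% of genes. Without the filter on low counts, where edgeR called 0.596% of genes, its adjusted p was 0.00948. In glutamatergic neuron-like cells it had 438.8, 237.6 and 198.7 CPM in sevoflurane libraries, against 592.4, 713.3 and 642.3 CPM in oxygen libraries. Its log2 fold change there was -1.25 ± 0.32 (SE), with an edgeR adjusted p of 0.526 and a DESeq2 adjusted p of 0.0393, where DESeq2 called 1.2% of genes. Without sevoflurane replicate 3 the values were -0.65 ± 0.11 (SE) in GABAergic and -1.03 ± 0.28 (SE) in glutamatergic neuron-like cells. In the neuron classes 2 of 7 members each were lower without overlap, PDE10A with PDE4B in GABAergic and PDE10A with PDE4D in glutamatergic neuron-like cells, beside 5.64% and 4.1% of all genes. Some marker sums also differed between the groups without overlap. In GABAergic neuron-like cells the 13 GABAergic markers found summed to 1625 to 2333 CPM after sevoflurane and 2338 to 2674 CPM after oxygen. The 14 endothelial markers summed there to 30.52 to 37.76 CPM after sevoflurane and 37.89 to 46.91 CPM after oxygen, with CLDN5 at 0. The 10 T cell markers summed to 10.19 to 20.15 CPM after sevoflurane and 8.457 to 9.354 CPM after oxygen, with CD3D, CD3E and CD3G at 0. In glutamatergic neuron-like cells the same GABAergic markers summed to 68.5 to 114.9 CPM after sevoflurane and 127.6 to 145.5 CPM after oxygen. The 12 OPC markers there summed to 373.4 to 620.8 CPM after sevoflurane and 631.7 to 651.2 CPM after oxygen, and the 12 fibroblast markers to 62.3 to 86.6 CPM after sevoflurane and 101.1 to 115.3 CPM after oxygen. The part of these markers in the PDE10A, PDE4B and PDE4D values was not tested.

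The libraries held different mixtures of neuron clusters, so PDE10A was also read within single clusters, a choice made after the clusters were seen. Cluster 20, led by HS3ST4, DPP10 and VIPR2 and present in all 6 libraries, had 339.6, 304.1 and 193.2 CPM in sevoflurane libraries, against 814.1, 664.4 and 653.3 CPM in oxygen libraries. The log2 fold change was -1.45 ± 0.21 (SE), with an edgeR adjusted p of 0.0232 in a fit of that cluster alone, where 1.08% of genes were called. Among the GABAergic clusters, cluster 23, led by ADARB2, had 238.8, 193.5 and 196.0 CPM in sevoflurane libraries, against 562.4, 425.3 and 402.7 CPM in oxygen libraries, a log2 fold change of -1.20 ± 0.17 (SE) with an edgeR adjusted p of 0.0511, where 0.0302% of genes were called. Cluster 16, one of those led by LHX6, had 302.1 to 708.5 CPM after sevoflurane and 827.2 to 974.7 CPM after oxygen. In clusters 5, 7, 10, 21 and 27 sevoflurane replicate 3 had under 20 cells, as had oxygen replicate 2 in cluster 21. The remaining sevoflurane libraries lay below the remaining oxygen libraries there, which was not tested. The share of all genes so placed was not counted, so nothing is read from these 5 clusters. Clusters 18 and 19 had enough cells in only 1 oxygen library and were not read. In clusters 13 and 24 the groups overlapped. These clusters share their libraries and are not replicates of each other.

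**Figure D4:**
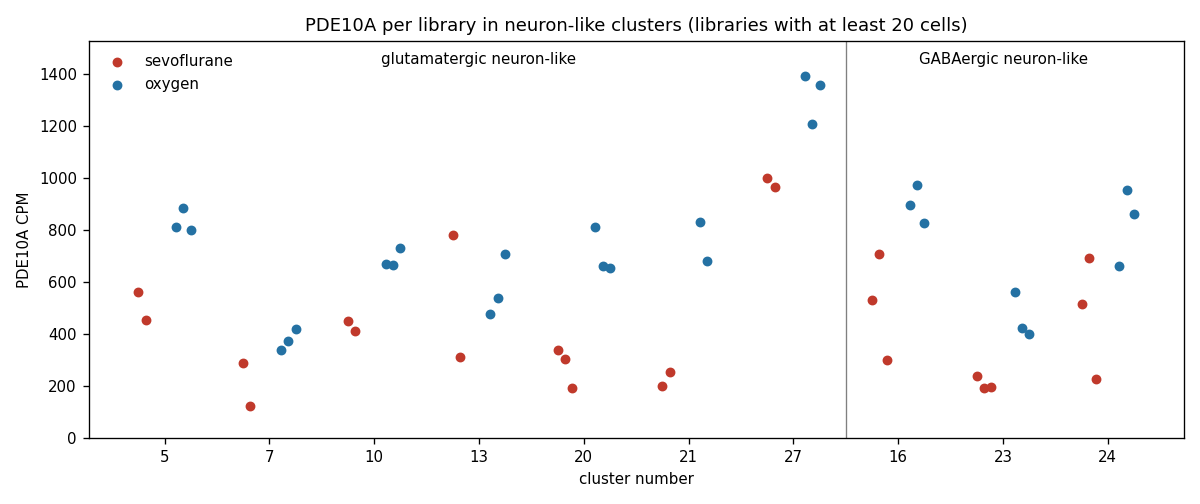
PDE10A CPM per library in 10 neuron-like clusters, glutamatergic left of the line and GABAergic right of it, with sevoflurane libraries left and oxygen libraries right in each; libraries with under 20 cells of a cluster are not drawn. Sevoflurane replicate 3 is not drawn in clusters 5, 7, 10, 13, 21 and 27. The sevoflurane points drawn lie below the oxygen points in the clusters except 13 and 24, and in cluster 20 they reach 339.6 CPM against at least 653.3 CPM.

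In the other tested classes, OPC-like, oligodendrocyte-like, microglia-like and endothelial-like cells, PDE10A overlapped between groups. OPC-like cells, where it was highest, had 749.3, 740.0 and 804.0 CPM in sevoflurane libraries, against 901.2, 833.4 and 794.5 CPM in oxygen libraries, a log2 fold change of -0.16 ± 0.10 (SE). Oligodendrocyte-like cells had 366.3, 576.7 and 398.4 CPM in sevoflurane libraries, against 431.4, 357.5 and 400.0 CPM in oxygen libraries. In microglia-like and endothelial-like cells the log2 fold changes were -0.70 ± 0.36 and -0.25 ± 0.41 (SE). Whether the PDE10A response differed between classes was not tested.

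PDE3A in the other classes was lower in sevoflurane libraries without overlap in oligodendrocyte-like cells, at 20.9, 6.54 and 18.2 CPM against 41.3, 28.6 and 38.4 CPM in oxygen libraries. These are low levels, and the log2 fold change of -1.22 ± 0.36 (SE) had an edgeR adjusted p of 0.511. PDE3A was the only member of 7 without overlap in that class, beside 5.91% of all genes lower without overlap. In these cells the 8 choroid plexus markers found summed to 131.1 to 440.7 CPM after sevoflurane and 72.5 to 129.8 CPM after oxygen, and the 10 T cell markers to 15.6 to 22.1 CPM after sevoflurane and 10.47 to 15.05 CPM after oxygen; their part was not tested. In OPC-like cells, which had the highest mean of the tested classes, the groups overlapped at 380.2, 411.5 and 445.2 CPM in sevoflurane libraries, against 392.3, 343.5 and 399.6 CPM in oxygen libraries, and the log2 fold change was 0.10 ± 0.12 (SE). In GABAergic neuron-like cells the log2 fold change was -1.09 ± 0.47 (SE), with 71.7 CPM in sevoflurane replicate 3 and an edgeR adjusted p of 0.475. PDE3A in this class was highest in cluster 23, at 504.6, 851.0 and 192.3 CPM in sevoflurane libraries and 674.6, 1108 and 1125 CPM in oxygen libraries, with overlap. In the other two clusters it was low and the groups did not overlap, with 21.3 to 29.0 CPM after sevoflurane and 44.2 to 48.05 CPM after oxygen in cluster 16, and 24.5 to 62.8 CPM after sevoflurane and 83.2 to 121.0 CPM after oxygen in cluster 24. In microglia-like cells it had 55.9, 257.6 and 192.9 CPM in sevoflurane libraries and 252.7, 250.9 and 342.7 CPM in oxygen libraries, with overlap.

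PDE4B, the family member best known from inflammatory signalling in immune cells, had its groups apart in 3 classes. In microglia-like cells it had 1905, 1477 and 1402 CPM in sevoflurane libraries, against 2492, 2095 and 2607 CPM in oxygen libraries, a log2 fold change of -0.54 ± 0.18 (SE) with an edgeR adjusted p of 0.529. It was the only such member there, beside 7.86% of genes lower without overlap. In the same cells the 12 OPC markers summed to 229.0 to 308.0 CPM after sevoflurane and 314.0 to 344.2 CPM after oxygen, and the 13 GABAergic markers to 138.2 to 270.8 CPM after sevoflurane and 287.6 to 312.4 CPM after oxygen. The 10 T cell markers there summed to 120.5 to 209.1 CPM after sevoflurane and 63.6 to 80.6 CPM after oxygen, with CD3D, CD3E and CD3G at 0. The part of these markers in the microglia-like PDE4B values was not tested. In GABAergic neuron-like cells it had 335.7, 327.5 and 278.1 CPM in sevoflurane libraries and 431.9, 385.2 and 440.6 CPM in oxygen libraries, a log2 fold change of -0.47 ± 0.12 (SE) with an edgeR adjusted p of 0.236. Within single GABAergic clusters the PDE4B groups were apart in cluster 23 and overlapped in clusters 16 and 24. In endothelial-like cells the order was the other way round, with 378.9, 465.7 and 263.7 CPM in sevoflurane libraries, against 224.9, 223.0 and 195.7 CPM in oxygen libraries. That log2 fold change of 0.87 ± 0.30 (SE) had an edgeR adjusted p of 0.999 and rested on 53 to 188 cells per library, and without sevoflurane replicate 2 it was 0.57 ± 0.23 (SE). The 14 endothelial markers summed to 6340 to 6881 CPM in these cells after sevoflurane and 7900 to 9324 CPM after oxygen. The 14 astrocyte markers found summed to 2062 CPM in sevoflurane replicate 2, which had the highest PDE4B, and to 417.0 to 677.3 CPM in the other libraries. The part of these markers in the PDE4B values was not tested. PDE4B was the only member higher without overlap in that class, beside 3.61% of genes. In oligodendrocyte-like cells, where it was highest, PDE4B overlapped, with a log2 fold change of 0.05 ± 0.13 (SE).

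PDE7B and PDE8B were higher in the OPC-like cells of sevoflurane libraries without overlap. PDE7B had 811.8, 913.1 and 1063 CPM in sevoflurane libraries, against 738.9, 754.1 and 717.3 CPM in oxygen libraries, a log2 fold change of 0.31 ± 0.12 (SE) with an edgeR adjusted p of 0.69. PDE8B had 208.8, 280.6 and 210.5 CPM in sevoflurane libraries, against 165.5, 188.0 and 184.1 CPM in oxygen libraries, a log2 fold change of 0.36 ± 0.14 (SE) with an edgeR adjusted p of 0.701. These were 2 of 7 members, beside 6.92% of genes higher without overlap. The 12 fibroblast markers summed to 927.1 to 960.1 CPM in OPC-like cells after sevoflurane and 758.3 to 914.7 CPM after oxygen, with COL3A1 at 0. That list includes PDGFRA, which is also an OPC marker and a leading gene of this cluster, so the sum does not measure fibroblast RNA alone. The part of these markers in the PDE7B and PDE8B values was not tested. In each of the other 6 tested classes both genes overlapped.

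PDE4D and PDE1A showed no group difference past the test. PDE4D in glutamatergic neuron-like cells had 1949, 1665 and 2077 CPM in sevoflurane libraries, against 2363, 2193 and 2309 CPM in oxygen libraries, a log2 fold change of -0.37 ± 0.14 (SE) with an edgeR adjusted p of 0.63. Within glutamatergic cluster 20 its groups overlapped, with a log2 fold change of -0.17 ± 0.16 (SE). In the other tested classes outside astrocyte-like cells PDE4D overlapped. There sevoflurane replicate 3 was the highest microglia-like library, at 2962 CPM, and the lowest GABAergic neuron-like library, at 1671 CPM. In ependymal-like cells, the ciliated lining of the ventricles, PDE4D had 437.4 and 482.4 CPM in the 2 sevoflurane libraries with enough cells, against 832.9, 1072 and 921.1 CPM in oxygen libraries. PDE10A and PDE7B were placed likewise there, and PDE3A, PDE1A, PDE4B and PDE8B overlapped. These values rest on 80 and 93 cells after sevoflurane and 216 to 472 cells per oxygen library. They were not tested and the share of all genes so placed was not counted, so nothing is read from them.

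PDE1A overlapped between groups in each class, and the same libraries were low or high across classes. Sevoflurane replicate 2 was the lowest library in each of the 7 tested classes, and sevoflurane replicate 3 the highest in 5 of them. In glutamatergic neuron-like cells, where PDE1A is highest, it had 1137, 683.2 and 1491 CPM in sevoflurane libraries, against 1194, 1668 and 1097 CPM in oxygen libraries. Most such cells of sevoflurane replicate 2 lay in cluster 7 (3054 cells), at 379.2 CPM. In cluster 5 this library was the highest of those with at least 20 cells, at 1886 CPM. In cluster 20 it had 2339 CPM, within 1995 to 2543 CPM over the libraries. In clusters 10 and 21 it was the lowest, at 906.2 and 39.07 CPM. The part of the cluster mixture in the class values was not tested. In astrocyte-like cells it had 148.0, 68.3 and 269.5 CPM in sevoflurane libraries, against 260.9, 211.1 and 158.0 CPM in oxygen libraries. The share of thinned cells with a PDE1A UMI averaged between 13.4% and 24% in every group of the astrocyte-like, OPC-like, oligodendrocyte-like, microglia-like and GABAergic neuron-like classes. The part of RNA from glutamatergic neurons in the PDE1A counts of the other classes was not tested.

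**Figure D5:**
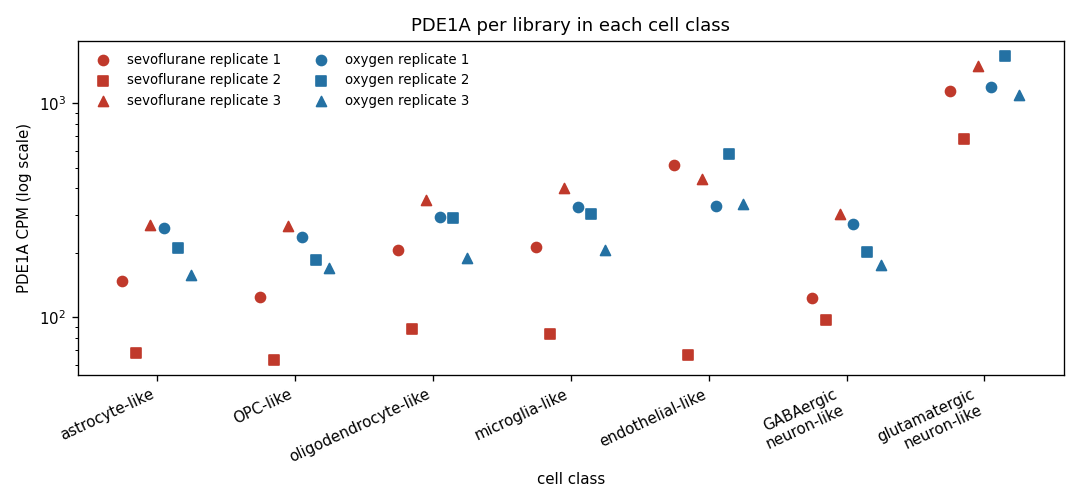
PDE1A CPM (log scale) per library in the 7 tested classes, with sevoflurane libraries left of oxygen libraries and a marker shape for each replicate number. Sevoflurane replicate 2 is the lowest point in every class, at 68.3 CPM in astrocyte-like and 683.2 CPM in glutamatergic neuron-like cells.

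The rest of the cyclic nucleotide pathway was read from 6 lists with 107 genes, of which 53 to 94 were measured per class. No gene of these lists passed the edgeR test in any of the 7 classes, while 3 to 15 per class had an unadjusted p under 0.05 and DESeq2 called 0 to 2. In astrocyte-like cells 72 were measured, 25 above and 47 below a fold change of 1, with 9 at an unadjusted p under 0.05, 12.5% beside 6.75% of all genes, and 1 called by DESeq2. That gene was ADCY8, a calcium-stimulated adenylyl cyclase, with a log2 fold change of -1.15 in edgeR. In GABAergic neuron-like cells 15 of 79 had an unadjusted p under 0.05, 19% beside 10.1% of all genes, and DESeq2 called 2. These were PRKG1, the cGMP-dependent protein kinase, at 562.3 to 741.9 CPM after sevoflurane and 1015 to 1111 CPM after oxygen, and ADCY10, the soluble adenylyl cyclase, at 12.4 to 43.5 CPM after sevoflurane and 3.96 to 4.44 CPM after oxygen. These 3 genes were picked after their values were seen. Over all genes DESeq2 called 37 in astrocyte-like and 88 in GABAergic neuron-like cells. In the other classes the share of list genes at an unadjusted edgeR p under 0.05 ran from 4.84% in OPC-like to 13.5% in oligodendrocyte-like cells. Beside these stood 6.12% and 7.62% of all genes.

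In astrocyte-like cells the median log2 fold changes lay between -0.28 for the 10 measured Gs-coupled receptors and G proteins and 0.02 for the 14 A-kinase anchoring proteins, beside 0.00 for all genes. Of the other phosphodiesterases the most abundant was PDE3B, the closest relative of PDE3A, at 134.8 ± 67.3 CPM after sevoflurane and 257.5 ± 55.5 CPM after oxygen (SD, n = 3 each), with overlapping groups. The cyclase with the highest level was ADCY2, at 1362 ± 104 CPM after sevoflurane and 1130 ± 164 CPM after oxygen. Among effectors, PRKACB, a catalytic subunit of protein kinase A, had 198.3 ± 13.4 CPM after sevoflurane and 215.0 ± 18.1 CPM after oxygen. PDE4DIP, myomegalin, which binds PDE4D, had 552.3, 657.7 and 1022 CPM in sevoflurane libraries, against 422.4, 471.8 and 544.9 CPM in oxygen libraries, without overlap and with an edgeR adjusted p of 0.627. GNAO1, a G protein alpha subunit, averaged 478.1 ± 41.3 CPM after sevoflurane and 556.5 ± 23.3 CPM after oxygen, also without overlap. The remaining named genes of these lists, PDE6C, ADCY9, PRKG1, AKAP13, GNAS, PPARGC1A and CREBBP, had log2 fold changes between -0.53 and 0.41. Of these AKAP13 alone had groups without overlap, at 437.1 to 610.7 CPM after sevoflurane and 409.1 to 417.5 CPM after oxygen. In this class 6.46% of all genes were lower without overlap, as GNAO1 was. The share of genes higher without overlap, as PDE4DIP and AKAP13 were, is not given, so nothing is read from these genes.

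The genes whose levels were most like those of PDE3A over 42 class and library pairs were PXDC1 (Pearson r = 0.773), RBMS1 (0.766) and PARP8 (0.738), on log2(CPM + 1) values of 8903 genes. Those most like PDE10A were SORBS2 (0.833), MTSS1 (0.831) and PKP4 (0.821). The members themselves ran from PDE7B with PDE8B (0.76) to PDE4B with PDE8B (-0.68), and PDE3A with PDE10A had 0.25. These correlations describe differences between classes, which share libraries.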

How the data were processed

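Per the labels, cells were captured with 10x Genomics 3′ v3.1 chemistry. CASAVA 1.8, Cell Ranger and Seurat are named in the submitters' processing notes, and Cell Ranger 6.1.1 per the file headers; the genome build is not given in the sources used here. Deposited by the authors were UMI counts of each gene in each barcode, unnormalised. Every barcode had at least 500 UMIs and 200 genes. Doublets were marked with scrublet (scanpy 1.11.5) at 0.19, the median automatic threshold, leaving 44344 of 46582 barcodes; library pairs shared at most 0.33% of barcodes. Cells were clustered (Leiden, resolution 1, 2000 variable genes without the members) and named by marker lists. The members and lists were chosen with earlier results of these data known.

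Counts were summed per library and class, with 195416 to 30261267 UMIs per sum, and fitted in edgeR 4.0.16 (R 4.3.3) with filterByExpr and TMM; all 7 members passed the filter in each tested class. The procedure was tested on simulated data. Alternatives were DESeq2 1.42.0, no filter, a replicate block, each library left out, resolution 0.5, doublets kept, cells of at least 1000 UMIs and single clusters. Named pathway genes were those passing in a class, plus the 2 with the highest mean CPM of each list in astrocyte-like cells. Mural-like, ependymal-like, fibroblast-like and choroid plexus-like cells had under 20 cells in 1 or more libraries and were not tested. The ± values of cell shares are SDs between libraries, while intervals and upper limits of a share within 1 library cover counting error only.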

Additional observations from a re-analysis of the deposited data

Results flagged for a closer look

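PDE4B had its groups apart in opposite directions in different classes. Its log2 fold change of sevoflurane over oxygen was 0.87 in endothelial-like cells, -0.54 in microglia-like cells and -0.47 in GABAergic neuron-like cells, and in each of these classes the 3 sevoflurane libraries lay on one side of the 3 oxygen libraries. The difference between the classes was not tested, and none of the 3 values passed the edgeR test over all genes. The search for a stray library needs at least 4 samples a group and could not be run.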

How the results depend on the processing

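In astrocyte-like cells the log2 fold changes of PDE3A and PDE10A moved by less than the spread between libraries under each alternative run. Leaving out each library gave -2.49 to -2.19 for PDE3A and -1.74 to -1.25 for PDE10A. The labels do not say whether the replicate numbers pair the libraries. Deviations of same-numbered libraries correlated between -0.329 and 0.138, which with 3 libraries a group cannot settle it. The replicate block gave -2.35 for PDE3A and -1.50 for PDE10A there, and it called 0 members elsewhere. Across all genes, edgeR called 0 to 9 per class, DESeq2 1 to 200, edgeR without a filter 1 to 258 and the block 0 to 1, so the count of calls rests on the tool; the cause was not tested. The count of pathway genes passing, 0 in each class, became 2 in GABAergic neuron-like cells under DESeq2 and without a filter (PRKG1, ADCY10). It became 1 under DESeq2 (ADCY8) and 3 without a filter (ADCY8, PDE3B, PDE4DIP) in astrocyte-like cells. It became 2 under DESeq2 in glutamatergic neuron-like (SIK1, ADCY10) and 3 without a filter in endothelial-like cells (AKAP12, CREB5, FOS).

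Several values that had not passed the test changed sign, most of them near 0; glutamatergic PDE3A and PDE4B, at -0.96 and -0.59, were further from 0. With doublets kept the log2 fold changes were 0.07 for PDE3A and -0.08 for PDE4D in endothelial-like, -0.06 for PDE7B in GABAergic neuron-like, and -0.05 for PDE7B and -0.42 for PDE8B in microglia-like cells. Without a filter PDE4D was -0.01 in endothelial-like cells. PDE7B in microglia-like cells was -0.08 at resolution 0.5 and -0.03 in cells of at least 1000 UMIs. Glutamatergic cluster 20 alone gave 0.06 for PDE3A, 0.40 for PDE4B and -0.30 for PDE8B. GABAergic cluster 16 gave -0.06 for PDE7B and cluster 23 gave 0.14 for PDE8B. Oligodendrocyte clusters 0 and 1 gave -0.22 and -0.02 for PDE4B. Leaving out single libraries ran from -0.25 to 0.22 for PDE3A, -0.51 to 0.13 for PDE10A, -0.60 to 0.21 for PDE1A and -0.11 to 0.43 for PDE4D in endothelial-like cells. In microglia-like cells it ran from -0.85 to 0.12 for PDE1A, -0.15 to 0.53 for PDE4D, -0.25 to 0.25 for PDE7B and -0.20 to 0.36 for PDE8B. In oligodendrocyte-like cells it ran from -0.05 to 0.30 for PDE10A, -0.86 to 0.13 for PDE1A, -0.03 to 0.13 for PDE4B and -0.08 to 0.26 for PDE8B. In astrocyte-like cells it ran from -0.95 to 0.02 for PDE1A. In neuron-like cells it ran from -0.05 to 0.71 for GABAergic PDE7B and from -0.14 to 0.16 for glutamatergic PDE8B. Endothelial-like cells were not named at resolution 0.5, which gave no value. With 3 libraries a group, and under 200 endothelial-like cells in each, differences of this size could not be told from the spread.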
